A study of Mus musculus with 6 samples.

Results

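The proteasome genes were taken as every probe set whose annotation gives a single gene symbol, that symbol being Psma, Psmb, Psmc, Psmd, Psme, Psmf or Psmg followed by a number. This gave 47 genes, read by 100 probe sets, of 18194 singly named genes and 45101 probe sets on the array. The genes fall into the core particle, the regulatory particle, the immunoproteasome subunits, the activators with an inhibitor, and the assembly chaperones. Psme2, the partner of Psme1 in an activator ring, shares its probe set with a second symbol and was not analysed here. Of the 47 genes, 45 (88 probe sets) had a signal high enough to be tested. The other members were Psma8, an alpha subunit known from testis, and Psmb11, a beta subunit known from thymus. Psma8 read 5.07, 5.33 and 5.25 in shRNA arrays, against 5.11, 5.27 and 5.24 in control arrays. Psmb11 read 5.55, 5.64 and 5.81 in shRNA arrays, against 5.27, 5.39 and 5.47 in control arrays. Both lay below 6.50, the lowest mean signal tested, and were left without a test.

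RNA of primary mouse myoblasts, the precursors of muscle fibres, was hybridised to 6 Affymetrix arrays. In 3 samples a lentivirus made from the Tet-pLKO-puro vector had brought in a short hairpin RNA (shRNA) that targets LncMyoD, a non-coding transcript from near Myod1. The other 3 samples were controls, and the labels do not say what those cells received. An age of 21 days is given for every sample, and a growth and a differentiation medium are described without saying which one each sample was in. The labels call the replicates biological but tie them to no animal or culture. Every p-value here therefore reflects the scatter among 6 arrays, and that scatter may be technical. LncMyoD itself matched no probe set, so the knockdown is not analysed here and the groups are those of the labels. Values are deposited log2 signals, and "shRNA" and "control" below mean these groups of 3 arrays.

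The proteasome degrades proteins that carry a ubiquitin chain. Its barrel-shaped core particle (20S) holds rings of alpha and beta subunits with the proteolytic sites inside, and the regulatory particle (19S) on its ends recognises, unfolds and feeds in the substrate. Dedicated chaperones build both particles, interferon can replace the catalytic beta subunits by immunoproteasome subunits, and other caps (the PA28 and PA200 activators) can take the place of the regulatory particle. In muscle the proteasome is known for degrading myofibrillar proteins in atrophy.

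The members as a family differed little between the groups. With each gene read by its brightest probe set, the genes that differed most were assembly chaperones and a lid subunit, whereas with probe sets averaged Psmc6 and the core subunit Psmb1 were among them (differences of -0.41 and -0.28). A gene was taken as changed where its adjusted p in limma's moderated test, over all tested probe sets, was under 0.05. Of the 45 tested members, 9 were higher and 6 were lower in shRNA arrays, together 33.3%, while 58.5% of all 12408 tested genes changed (35.7% higher and 22.8% lower). The median difference over the members was -0.021 on the log2 scale, against 0.046 over all tested genes. The median size of the difference without its sign was 0.072 against 0.209. Among genes with a mean signal of 13 or more, where 21 of the members lie, that size was 0.066 in members against 0.083. A difference of 0.2 or more in either direction was found in 4 members, Psmg3, Psmd5, Psmd9 and Psmd11, and in 51.4% of all tested genes. None of the 4 is a core subunit: Psmg3, Psmd5 and Psmd9 are assembly chaperones and Psmd11 is a lid subunit. In 30 members the difference was under 0.1. The arrays of the groups did not overlap for 21 of 45 members, against 64.8% of all tested genes. Of the 30 members that did not pass, 27 had a 95% interval of the difference that lay within 0.2 of 0. The exceptions were Psmb9, Psmg1 and Psmg4, whose intervals reached -0.31, -0.22 and -0.28. In bulk RNA, fewer cells of a type and less RNA per cell cannot be told apart.

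The direction of these small differences depended on which scaling was used. With each array centred on the median of its tested probe sets, every difference moves down by 0.064. Of the members, 2 were then higher and 19 lower, with a median of -0.085. Of all 12408 tested genes, 3627 were then higher and 3663 lower. With quantile normalization instead, 12 members were higher and 8 lower, with a median of -0.0091. Of all tested genes, 4243 were higher and 3216 lower under that setting. The count of higher members also rested on single arrays: it was 3 without the third control array and 4 without the second shRNA array, while the count of lower members stayed between 4 and 6 whichever array was left out. Psmb4, Psmd5, Psmd9, Psmd11, Psme1 and Psmg3 passed the threshold in the same direction under all 15 alternative settings and omissions. The other members that had changed held less well. Psma5, Psmc6 and Psmd6 fell short in 9 of the 15, Psmb6 and Psmg2 in 6, Psmf1 in 5, and Psma6, Psmd4 and Psmd13 in 4. Of the members that did not pass, 11 did not pass in any of the 15 either.

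**Figure D1:**
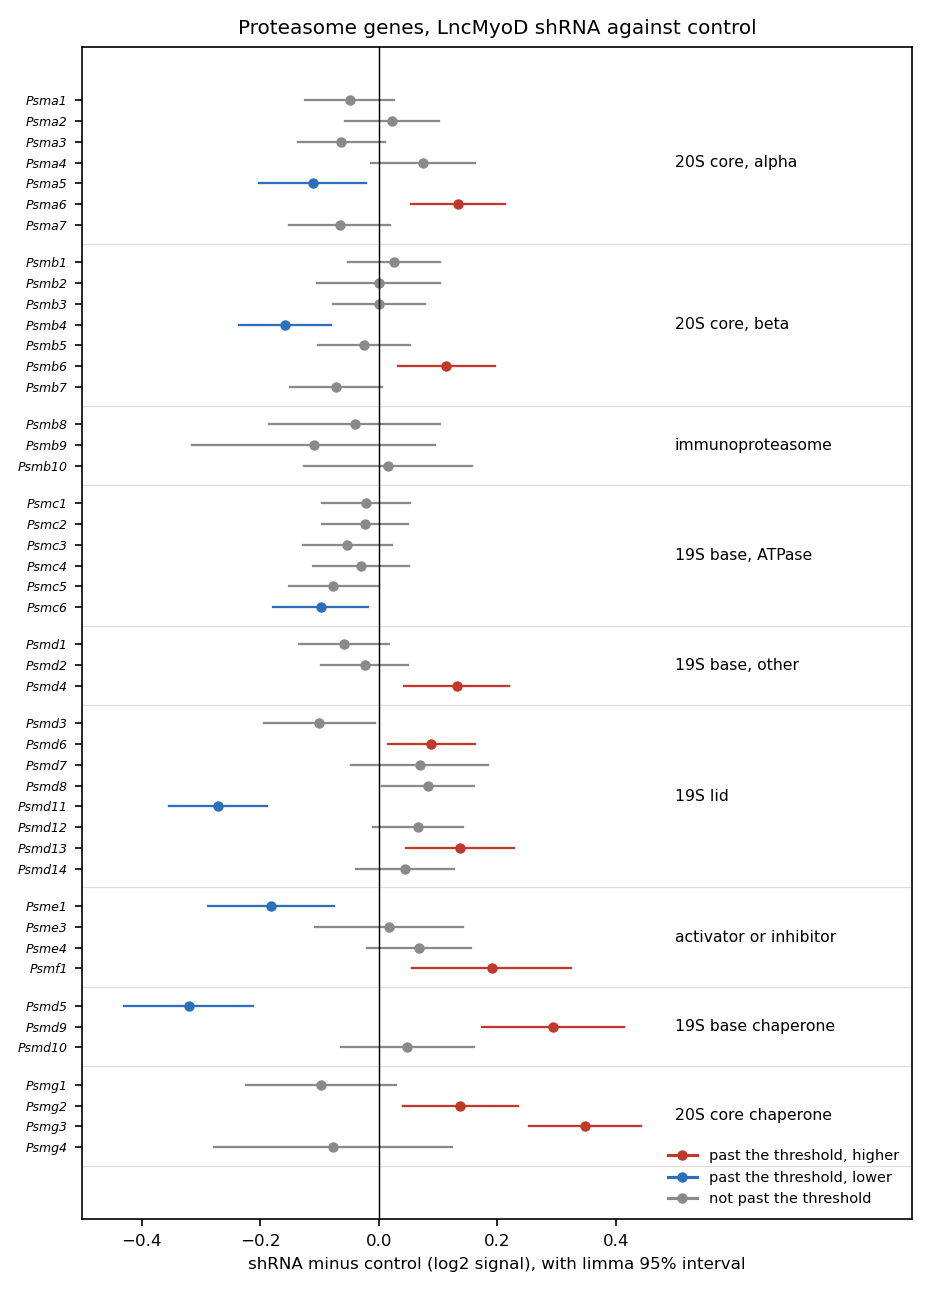
Difference between shRNA and control arrays on the log2 scale (horizontal axis) for the 45 tested proteasome genes, grouped by role, as points with limma 95% intervals. Most points lie within 0.1 of 0, and the widest departures are Psmg3 at 0.35, Psmd9 at 0.29, Psmd11 at -0.27 and Psmd5 at -0.32.

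Most members gave a bright signal: 31 of the 45 had a mean of 12 or more and 21 had 13 or more. The median of the whole first control array was 7.23. The brightest genes changed less often than others across the whole array, so the members were also read within bands of brightness. At 13 or more, 7 of 21 members (33.3%) had changed, against 45.9% of all genes that bright. At 12 to 13 it was 3 of 10 members against 61.5% of genes. At 10 to 12 it was 4 of 10 against 70.4%, and under 10 it was 1 of 4 against 51.2%. The median size of the difference without its sign was 0.072 in members and 0.142 in all genes at 12 to 13. At 10 to 12 it was 0.099 against 0.233, and under 10 it was 0.093 against 0.251. Counted over single probe sets, in the brightest band 38.5% of the member probe sets (10 of 26) and 40.6% of all probe sets had changed, a near match. In the bands below, 8 of 20, 10 of 19 and 9 of 23 member probe sets had changed, against 58.4%, 68.1% and 47.8% of all probe sets. Over all bands, 37 of 88 member probe sets (42.0%) had changed, 16 of them higher and 21 lower, against 53.9% of all tested probe sets (30.4% higher and 23.5% lower). Whether saturation or scaling takes part in the low share at the bright end was not tested.

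**Figure D2:**
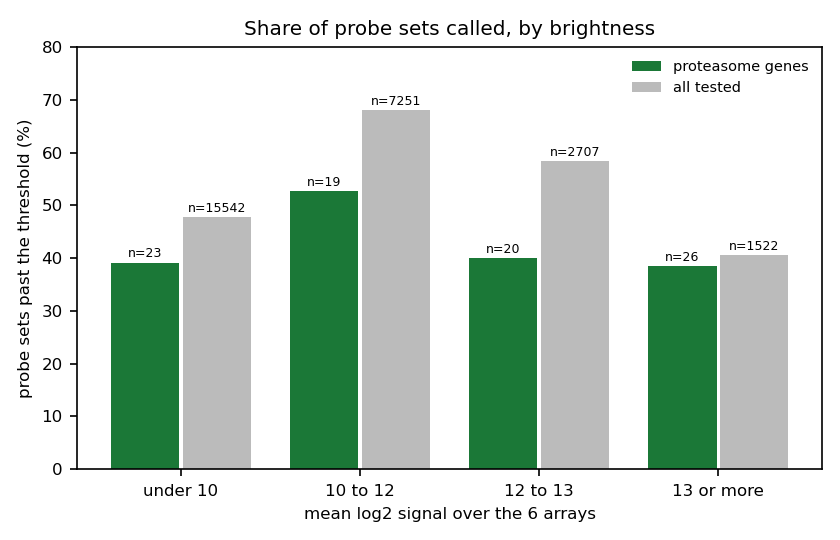
Share of probe sets past the threshold (vertical axis, percent) in 4 bands of mean log2 signal, for proteasome genes and beside them for all tested probe sets, with the number of probe sets over each bar. The shares lie close together at 13 or more (38.5% and 40.6%) and further apart at 12 to 13 (8 of 20 and 58.4%).

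The promoters of 6 members are shown because the results below turn on these genes. Psmb6, like Psmb5 (not shown), is a catalytic core subunit with a match to TGACNNNGC, described next. The others are the 4 members with the largest differences, and Psmb9 for the start site it shares with a neighbour. Each runs 5′ to 3′ on the gene's own strand, from 250 bases before the start of the gene to 50 bases after it, from RefSeq on assembly GRCm38.p6. Capitals mark matches, on either strand, to TGACNNNGC (the core of the antioxidant response element, to which the Nfe2l1 and Nfe2l2 proteins bind with small Maf partners), CCAAT (the NF-Y box) or AANNGAAA (a core of the interferon response elements); none of these strings contains another.
Psmg3, chr5:139826845-139827144, minus strand: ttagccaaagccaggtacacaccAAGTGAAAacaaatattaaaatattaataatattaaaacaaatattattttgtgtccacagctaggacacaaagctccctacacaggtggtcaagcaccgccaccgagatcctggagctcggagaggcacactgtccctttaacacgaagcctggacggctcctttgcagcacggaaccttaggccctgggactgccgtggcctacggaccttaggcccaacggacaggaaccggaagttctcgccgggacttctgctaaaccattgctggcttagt
Psmd9, chr5:123227940-123228239, plus strand: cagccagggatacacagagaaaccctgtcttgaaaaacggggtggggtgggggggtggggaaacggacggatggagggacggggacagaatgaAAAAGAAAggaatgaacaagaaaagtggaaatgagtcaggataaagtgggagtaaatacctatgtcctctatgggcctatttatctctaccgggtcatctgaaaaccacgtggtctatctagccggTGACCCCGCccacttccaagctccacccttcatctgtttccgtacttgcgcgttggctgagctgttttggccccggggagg
Psmd5, chr2:34870913-34871212, minus strand: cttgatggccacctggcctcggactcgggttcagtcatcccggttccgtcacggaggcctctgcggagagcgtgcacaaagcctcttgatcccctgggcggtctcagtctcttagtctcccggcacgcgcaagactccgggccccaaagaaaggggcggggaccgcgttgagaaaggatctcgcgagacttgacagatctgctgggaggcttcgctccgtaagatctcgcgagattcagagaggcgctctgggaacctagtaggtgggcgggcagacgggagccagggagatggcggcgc
Psmd11, chr11:80428365-80428664, plus strand: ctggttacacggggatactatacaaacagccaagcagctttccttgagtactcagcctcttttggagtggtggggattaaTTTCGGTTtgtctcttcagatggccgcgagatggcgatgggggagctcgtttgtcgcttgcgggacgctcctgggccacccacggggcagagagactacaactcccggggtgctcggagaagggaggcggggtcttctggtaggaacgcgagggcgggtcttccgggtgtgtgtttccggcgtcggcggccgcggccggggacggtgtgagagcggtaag
Psmb6, chr11:70525107-70525406, plus strand: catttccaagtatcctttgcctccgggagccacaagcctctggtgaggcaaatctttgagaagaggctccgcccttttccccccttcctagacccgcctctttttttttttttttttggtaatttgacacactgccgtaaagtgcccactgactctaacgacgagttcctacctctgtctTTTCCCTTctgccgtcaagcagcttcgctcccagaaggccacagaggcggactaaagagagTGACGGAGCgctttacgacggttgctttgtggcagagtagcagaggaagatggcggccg
Psmb9, chr17:34187281-34187580, minus strand: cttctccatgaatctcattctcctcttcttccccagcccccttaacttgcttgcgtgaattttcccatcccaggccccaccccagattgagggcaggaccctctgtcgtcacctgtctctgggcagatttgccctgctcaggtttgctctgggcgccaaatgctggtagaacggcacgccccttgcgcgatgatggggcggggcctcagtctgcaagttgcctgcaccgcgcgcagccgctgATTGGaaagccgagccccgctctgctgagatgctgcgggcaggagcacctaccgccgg

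Of the 47 members, 39 had a promoter in the RefSeq table, with 41 windows between them. TGACNNNGC stood in 6 of the 41 windows (14.6%), against 12.4% of all 32851 windows of that length. The 6 belong to Psmb5, Psmb6, Psmc6, Psmd9, Psmd12 and Psme4. Their matched sites begin 47, 9, 227, 31, 247 and 7 bases before the start, in that order. Written on the strand that matches, they read as follows, with the fixed letters at both ends of each.
Psmb5: TGACGTCGC
Psmb6: TGACGGAGC
Psmc6: TGACTTAGC
Psmd9: TGACCCCGC
Psmd12: TGACACAGC
Psme4: TGACGCTGC

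Of these 6 genes, Psmb6 and Psmd9 were higher in shRNA arrays, Psmc6 was lower, and Psmb5, Psmd12 and Psme4 did not pass. CCAAT stood in 34.1% of member windows against 37.4% of all, and AANNGAAA in 31.7% against 23.9%. The search covered letters in these windows only, and a match is not a binding site.

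With each gene read by its brightest probe set, 3 of the 4 largest differences of the family were in assembly chaperones. Of 7 tested, 3 were higher, 1 was lower and 3 did not pass (57.1% changed, close to the 58.5% of all genes), with differences between -0.32 and 0.35. Psmg3, which pairs with Psmg4 to set the alpha subunits of a new core in place, read 12.78, 12.78 and 12.79 in shRNA arrays, against 12.50, 12.47 and 12.34 in control arrays. All 3 shRNA arrays lay above all 3 control arrays. The difference was 0.35 (SE 0.044, limma adjusted p = 2.2e-05), or 27.3% more signal, and a dimmer probe set of the gene rose by 0.29 (limma adjusted p = 0.038). Its partner Psmg4 did not pass, at 8.34 against 8.42 (a difference of -0.077, SE 0.093).

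The other core chaperone pair is formed by Psmg1 and Psmg2. Psmg2 rose by 0.14 (SE 0.045, limma adjusted p = 0.0192) on its brightest probe set, while a second one differed by -0.062 and did not pass. Psmg1 averaged 10.32 in shRNA arrays and 10.41 in control arrays, a difference of -0.098 that did not pass. Neither chaperone pair therefore held more than 1 member past the threshold.

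Psmd5, Psmd9 and Psmd10 are chaperones that hold the ATPases of the regulatory particle's base during assembly and leave before the proteasome is finished. They did not move as a group. Psmd5 read 11.14, 11.24 and 11.25 in shRNA arrays, against 11.61, 11.48 and 11.50 in control arrays. It was lower in every shRNA array than in any control array. The difference was -0.32 (SE 0.05, limma adjusted p = 0.00014), so that the signal dropped by 19.9%, and the gene has a single probe set.

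Psmd9 went the other way. It read 10.96, 11.11 and 11.06 in shRNA arrays, against 10.79, 10.79 and 10.66 in control arrays, with no overlap. The difference was 0.29 (SE 0.055, limma adjusted p = 0.000588). A dimmer probe set of Psmd9 had the largest difference of all 88: it read 9.16, 9.14 and 9.15 in shRNA arrays, against 8.06, 7.85 and 7.92 in control arrays, which is 2.30-fold higher (limma adjusted p = 9.94e-08). The faintest of its 3 probe sets differed by -0.21 and did not pass (limma adjusted p = 0.114). Psmd10, also known as the oncoprotein gankyrin, differed by 0.048 and did not pass.

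**Figure D3:**
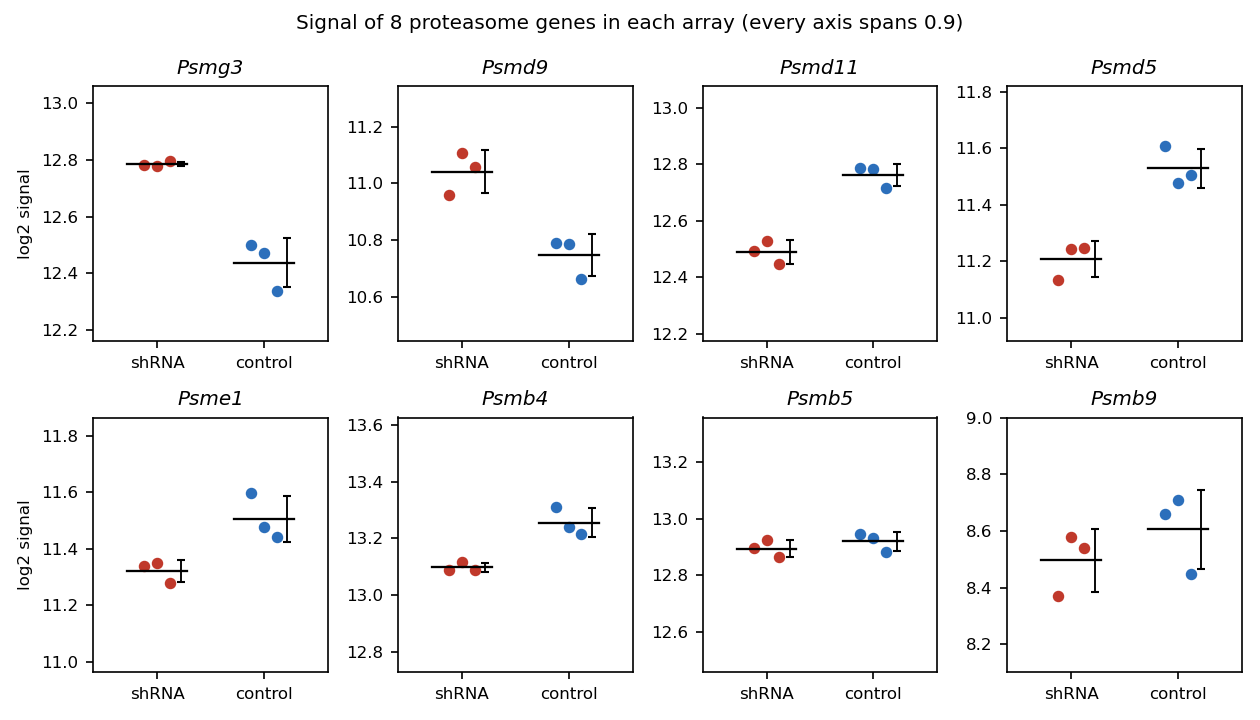
Log2 signal (vertical axis) of 8 proteasome genes in each of the 3 shRNA arrays (left of each panel) and 3 control arrays (right), with the group mean as a line and the SD as a bar, each axis spanning the same range. Psmg3 and Psmd9 lie higher and Psmd11, Psmd5, Psme1 and Psmb4 lower in all 3 shRNA arrays, while the arrays of Psmb5 and Psmb9 overlap.

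The core particle itself was nearly level. Of its 14 constitutive subunits, 2 were higher, 2 were lower and 10 did not pass (median -0.013). Thus 28.6% changed, against 56.2% of all tested genes with a mean of 12 or more and 45.9% of those with 13 or more. In the alpha ring, whose subunits form the gate of the barrel, Psma6 was higher by 0.13 (SE 0.037, limma adjusted p = 0.00812) and Psma5 lower by 0.11 on the log2 scale (a difference of -0.11, SE 0.042, limma adjusted p = 0.0375). Of the 3 tested probe sets of Psma6, 2 were higher and 1 differed by -0.066 and did not pass. Psma6 fell short of the threshold in 4 of the 15 alternative settings and omissions, and Psma5 in 9. Psma5 was the only member of the 15 that changed whose arrays overlapped between the groups. The others of the ring did not pass: Psma1 differed by -0.049, Psma2 by 0.022, Psma3 by -0.063, Psma4 by 0.075 and Psma7 by -0.066. Psma7 was among 7 members whose arrays did not overlap although they missed the threshold.

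Among the beta subunits without a catalytic site, Psmb4 fell. It averaged 13.10 in shRNA arrays and 13.26 in control arrays, a difference of -0.16 (SE 0.036, limma adjusted p = 0.00243), and its second probe set fell by 0.12 (limma adjusted p = 0.0137). Psmb1, Psmb2 and Psmb3 did not pass on their brightest probe sets, at 0.026, -0.00031 and 0.00057.

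Psmb1 is the core gene whose reading depends most on the probe set. The brightest read 13.53, 13.54 and 13.52 in shRNA arrays, against 13.57, 13.48 and 13.46 in control arrays, with overlap. The next read 12.46, 12.42 and 12.44 in shRNA arrays, against 12.90, 12.84 and 12.86 in control arrays. That is a difference of -0.43 without overlap (limma adjusted p = 6.24e-07), and the third probe set differed by -0.45 (limma adjusted p = 1.35e-05). Averaged over its probe sets, Psmb1 differed by -0.28 (limma adjusted p = 4.73e-05). A second probe set of Psmb3 likewise fell by 0.11 (limma adjusted p = 0.0459).

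The catalytic subunits of the constitutive core were read one by one. Psmb6, which carries the caspase-like site, read 13.45, 13.49 and 13.43 in shRNA arrays, against 13.41, 13.31 and 13.31 in control arrays. Its groups did not overlap, and the difference was 0.11 (SE 0.038, limma adjusted p = 0.0221), or 8.24% more signal. Psmb7, with the trypsin-like site, read 13.68, 13.72 and 13.70 in shRNA arrays, against 13.80, 13.71 and 13.81 in control arrays. One shRNA array lay inside the control range, and the difference of -0.072 did not pass (limma adjusted p = 0.111). Psmb5, with the chymotrypsin-like site that proteasome inhibitor drugs bind, read 12.89, 12.92 and 12.86 in shRNA arrays, against 12.95, 12.93 and 12.88 in control arrays. The arrays overlapped, and the difference was -0.025 (95% interval -0.10 to 0.052, limma adjusted p = 0.581).

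The immunoproteasome subunits, which interferon induces and which replace those 3 catalytic subunits, did not pass in any case (0 of 3 in limma at an adjusted p under 0.05, and 0 at an unadjusted p under 0.05). Of all tested genes, 58.5% changed. Psmb8, the counterpart of Psmb5, read 9.55, 9.50 and 9.62 in shRNA arrays, against 9.62, 9.50 and 9.66 in control arrays. Psmb9, the counterpart of Psmb6, read 8.37, 8.58 and 8.54 in shRNA arrays, against 8.66, 8.71 and 8.45 in control arrays. Psmb10, the counterpart of Psmb7, read 10.01, 10.09 and 9.92 in shRNA arrays, against 10.08, 9.98 and 9.92 in control arrays. The groups overlapped for all 3 genes. Their differences were -0.041 (95% interval -0.19 to 0.11), -0.11 (-0.31 to 0.096) and 0.015 (-0.13 to 0.16) for Psmb8, Psmb9 and Psmb10.

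Each immunoproteasome subunit was also set against its counterpart within the same array, and only the difference between groups was read. The change of Psmb9 relative to Psmb6 was -0.22, that of Psmb10 relative to Psmb7 was 0.087 and that of Psmb8 relative to Psmb5 was -0.015. Over all 20 ways to assign the arrays, the exact permutation p (two-sided) was 0.1, 0.4 and 0.8 in that order, or 0.3, 0.6 and 0.8 after Benjamini-Hochberg adjustment over the 3 pairs. A p of 0.1 is the smallest that 3 against 3 arrays allow, so no pair could pass in this test.

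In the regulatory particle, 3 of 17 subunits were higher, 2 were lower and 12 did not pass (median -0.023). Thus 29.4% changed, against 58.5% of all tested genes. The 6 ATPases of the base, which unfold the substrate, all had differences below 0 on the probe sets that stand for them. These differences lay between -0.098 and -0.021, and 1 of them passed. The values were -0.021 for Psmc1, -0.023 for Psmc2, -0.053 for Psmc3, -0.029 for Psmc4, -0.076 for Psmc5 and -0.098 for Psmc6. A second probe set of Psmc4 differed by 0.042 and did not pass. Psmc6 passed at its brightest probe set (SE 0.037, limma adjusted p = 0.0408).

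Psmc6 fell on each of its 3 probe sets, and by more on the dimmer ones. The second read 11.82, 11.88 and 11.84 in shRNA arrays, against 12.35, 12.24 and 12.32 in control arrays, a difference of -0.46 (limma adjusted p = 1.19e-06). The faintest read 9.93, 9.89 and 9.98 in shRNA arrays, against 10.68, 10.56 and 10.63 in control arrays, a difference of -0.69 (limma adjusted p = 3.51e-07). No shRNA array reached a control array on any of the 3. Averaged over them, Psmc6 differed by -0.41 (limma adjusted p = 3.09e-06), second only to Psmd9 at 0.43 among averaged members. For Psmc1 a dimmer probe set, of a kind whose probes may also match other transcripts, fell by 0.19 (limma adjusted p = 0.00763).

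In the rest of the base, the ubiquitin receptor Psmd4 was higher by 0.13 (SE 0.041, limma adjusted p = 0.0152). Its second probe set differed by 0.075 and did not pass (limma adjusted p = 0.158), and a dim one, with a mean of 8.26, rose by 0.29 (limma adjusted p = 0.023). The scaffold subunits Psmd1 and Psmd2 differed by -0.059 and -0.024 and did not pass.

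In the lid, which cuts the ubiquitin chain off the substrate, Psmd11 fell on 5 of its 7 tested probe sets. Work in human embryonic stem cells ties Psmd11 to the assembly of the complete proteasome. The brightest probe set read 12.49, 12.53 and 12.45 in shRNA arrays, against 12.79, 12.78 and 12.72 in control arrays. All 3 shRNA arrays lay below all 3 control arrays, with a difference of -0.27 (SE 0.038, limma adjusted p = 5.83e-05), so that the signal dropped by 17.2%. The next in brightness differed by -0.46, -0.39 and -0.49 (limma adjusted p = 3.84e-06, 4.76e-06 and 2.57e-06). A faint one fell by 0.25 (limma adjusted p = 0.0356), and the remaining ones, at -0.19 and -0.13, did not pass.

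The other lid subunits spread to both sides. Psmd13 was higher by 0.14 (SE 0.042, limma adjusted p = 0.0142) and Psmd6 by 0.089 (SE 0.034, limma adjusted p = 0.0416). A second probe set of Psmd13 rose by 0.17, while another did not pass. Psmd6 did not pass on its other tested probe set. The others did not pass, with -0.10 for Psmd3, 0.069 for Psmd7, 0.084 for Psmd8, 0.066 for Psmd12 and 0.044 for Psmd14, the deubiquitinase of the lid.

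**Figure D4:**
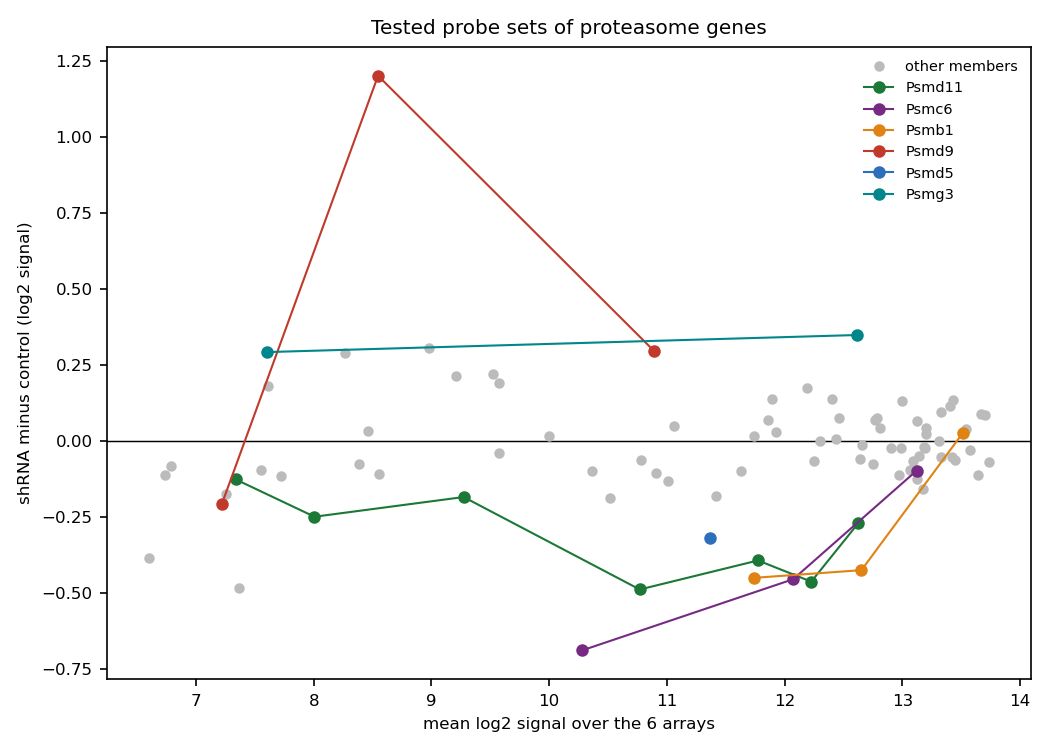
Difference between shRNA and control arrays (vertical axis, log2) against mean log2 signal over the 6 arrays (horizontal axis) for the 88 tested probe sets of proteasome genes, with probe sets of 1 gene joined by a line for 6 genes. Psmd11 and Psmc6 lie below 0 throughout, Psmb1 has its brightest probe set at 0.026 and the others at -0.43 and -0.45, and Psmd9 spreads from -0.21 to 1.20.

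Of the 24 tested members with more than 1 tested probe set, 10 gave the same result on all of them. No member had probe sets that passed in opposite directions. On any probe set at all, 20 of the 45 members changed, and 25 changed on none. The share of all genes under this looser rule was not counted, so these counts have no background to be read against. The probe sets could not be placed on transcripts here, so whether those that disagree read different transcript ends or isoforms was not tested.

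The activators and the inhibitor, which bind the core outside the regulatory particle, also differed one by one. Psme1, the PA28 alpha subunit, which interferon induces, read 11.34, 11.35 and 11.28 in shRNA arrays, against 11.60, 11.48 and 11.44 in control arrays. Its arrays did not overlap, and its signal fell by 11.9% (a difference of -0.18, SE 0.049, limma adjusted p = 0.00703). Psme3, the PA28 gamma subunit of a nuclear activator, read 11.66, 11.76 and 11.84 in shRNA arrays, against 11.84, 11.71 and 11.65 in control arrays. These overlapped (a difference of 0.017), although a second probe set fell by 0.13 (limma adjusted p = 0.0248).

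Psme4, the PA200 activator known from spermatogenesis and histone turnover, read 12.78, 12.82 and 12.81 in shRNA arrays, against 12.74, 12.66 and 12.80 in control arrays. The arrays overlapped and the difference of 0.068 did not pass (limma adjusted p = 0.177). A pair of its faint probe sets, with means of 7.37 and 6.60, differed by -0.49 and -0.39 (limma adjusted p = 0.0124 and 0.0236), while the bright ones did not pass. Psmf1, the PI31 protein, first described as an inhibitor of the core, read 9.64, 9.69 and 9.69 in shRNA arrays, against 9.53, 9.50 and 9.42 in control arrays. It rose without overlap by 0.19 (SE 0.062, limma adjusted p = 0.0198), and 2 further probe sets rose by 0.22 and 0.31. Another of its tested probe sets did not pass.

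Some genes around the proteasome differed by more than any of its subunits on their brightest probe sets. Among regulators of proteasome genes, 7 of 13 were higher, 1 was lower and 5 did not pass (median 0.14), where 58.5% of all tested genes changed (35.7% higher and 22.8% lower). The lists that follow are read against the same background. Nfe2l1, the factor that raises proteasome genes when the proteasome is inhibited, read 13.09, 13.14 and 13.18 in shRNA arrays, against 13.25, 13.16 and 13.13 in control arrays. These overlapped, with a difference of -0.041 (limma adjusted p = 0.415). Nfe2l2, the related factor of the oxidative stress response, rose by 0.27 (SE 0.043, limma adjusted p = 0.000163). Of the NF-Y subunits, which bind CCAAT boxes, Nfyc fell by 0.64 (limma adjusted p = 2.22e-08) and Nfyb rose by 0.42 (limma adjusted p = 1.25e-05). Nfya differed by -0.023 and did not pass (limma adjusted p = 0.737). Keap1, which targets Nfe2l2 for degradation, rose by 0.38, and the small Maf genes Mafg and Maff by 0.37 and 0.54. These 3 were picked out after their values were seen. Mafk, the brightest small Maf gene of the list, differed by 0.046 and did not pass (limma adjusted p = 0.476). The 9 higher and 6 lower proteasome genes thus stood beside a higher Nfe2l2 and a level Nfe2l1 that did not pass, and any link between them was not tested.

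Irf1, an interferon response factor that drives immunoproteasome genes, read 9.21, 9.17 and 9.15 in shRNA arrays, against 8.41, 8.50 and 8.53 in control arrays. It rose by 0.70 without overlap (SE 0.074, limma adjusted p = 4.96e-06), while Psmb8, Psmb9 and Psmb10 did not pass and Psme1 fell. Genes of MHC class I antigen processing, which use the peptides the proteasome makes, changed on both sides: of 12, 5 were higher, 4 were lower and 3 did not pass (median 0.028), against 35.7% higher and 22.8% lower among all tested genes. Tapbp, the tapasin of the peptide-loading complex, rose by 0.63 on its brighter probe set (limma adjusted p = 3.27e-08) and differed by 0.019 on the other, which did not pass. Pdia3, a disulfide isomerase of that complex, fell by 0.46 (limma adjusted p = 3.23e-07). H2-D1, a class I heavy chain, rose by 0.53 on the probe set that stands for it, but another fell by 0.29 (limma adjusted p = 0.023) and its other 4 did not pass.

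Tap1, a subunit of the peptide transporter, read 9.67, 9.75 and 9.60 in shRNA arrays, against 9.13, 8.83 and 8.72 in control arrays. It rose without overlap by 0.78 (SE 0.096, limma adjusted p = 1.83e-05), although a dimmer probe set fell by 0.26 (limma adjusted p = 0.0372). In the GRCm38.p6 gene table, Psmb9, Tap1, Psmb8 and Tap2 follow each other in that order, and Psmb9 and Tap1 run away from each other from nearly the same start. Their promoter windows share 275 of 300 bases, most of the window printed above for Psmb9, with a CCAAT match 8 bases before the Psmb9 start. Within the same array, the change of Tap1 relative to Psmb9 was 0.89, with an exact two-sided permutation p of 0.1, the smallest possible. This pair was chosen after the values were seen.

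**Figure D5:**
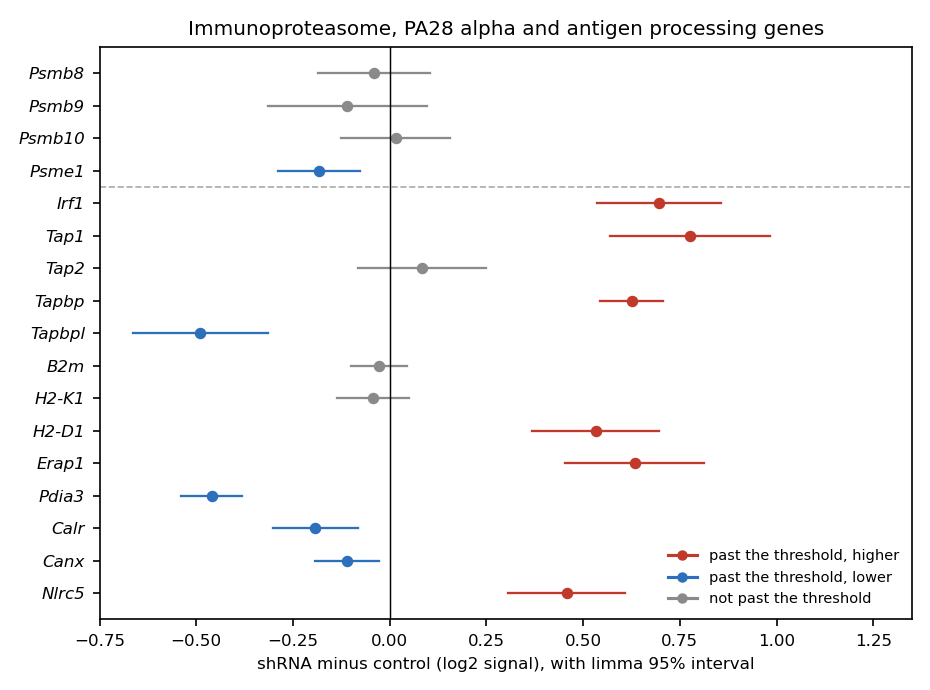
Difference between shRNA and control arrays on the log2 scale (horizontal axis), with limma 95% intervals, for Psmb8, Psmb9, Psmb10 and Psme1 (above the dashed line) and for Irf1 and the 12 tested genes of MHC class I antigen processing (below it). The immunoproteasome genes lie between -0.11 and 0.015, while Irf1, Tap1, Tapbp, H2-D1, Erap1 and Nlrc5 lie between 0.46 and 0.78, and Psme1 (-0.18), Tapbpl (-0.49), Pdia3 (-0.46), Calr (-0.19) and Canx (-0.11) lie below 0.

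Among other proteasome subunits and partners outside the naming rule, 4 of 14 were higher, 4 were lower and 6 did not pass (median 0.014), so that about as many changed as among all tested genes (58.5%). Zfand2a, an arsenite-inducible protein that binds the proteasome, fell by 0.73 (limma adjusted p = 2.67e-07). Ubqln1, a shuttle that brings ubiquitinated proteins to the proteasome, fell by 0.36 (limma adjusted p = 3.42e-06), while its other 2 tested probe sets did not pass. The deubiquitinase Uchl5 rose by 0.34 (limma adjusted p = 2.35e-05), with a further probe set that did not pass. Pomp, the maturation factor of the core, differed by 0.0097 and did not pass.

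Of VCP, the ATPase that extracts ubiquitinated proteins, and its cofactors, 2 of 9 were higher, 2 were lower and 5 did not pass (median 0.036), against 35.7% higher and 22.8% lower among all tested genes. Faf2 fell by 0.23 (limma adjusted p = 0.000919), Faf1 fell by 0.16 (limma adjusted p = 0.00236) and Ubxn6 rose by 0.25 (limma adjusted p = 0.00295). Of ubiquitin genes and the enzymes that load it, 3 of 7 were higher and 4 did not pass (median 0.070), near the 35.7% of all tested genes that were higher. Cdc34 rose by 0.39 (limma adjusted p = 5.27e-06), Uba6 by 0.31 (limma adjusted p = 0.000144, with 3 other probe sets that did not pass) and Ube2r2 by 0.12 (limma adjusted p = 0.0143).

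Among markers of the cells' label, Myod1 averaged 13.82 in shRNA arrays and 13.80 in control arrays, and Des 13.26 in shRNA arrays and 13.22 in control arrays. Myog, brighter than Myod1, averaged 14.00 in shRNA arrays and 14.13 in control arrays, and the medium of each sample is not known. Of 10 myoblast markers, 4 were higher (Pax7 by 0.66, Myf5 by 0.62 and Cdh15 by 0.40 among them), 2 were lower (Myog, a difference of -0.13, and Ncam1, -0.11) and 4 did not pass. On its dimmer probe sets Ncam1 differed by up to -0.97. The summed linear signal of the 10 ran from 117011 to 122558 in shRNA arrays and from 121802 to 126036 in control arrays. Leukocyte markers, which matter for immunoproteasome signal, were faint: Ptprc, which defines the type, averaged 5.03 in shRNA arrays and 5.07 in control arrays, and 5 of 11 fell below the tested range. Of the 6 tested, Cd68 was higher (6.73 in shRNA arrays and 6.40 in control arrays). The summed linear signal over all probe sets of the 11 ran from 1178 to 1331 in shRNA arrays and from 1307 to 1380 in control arrays. Of 5 tested fibroblast markers, Pdgfra rose by 0.89 and Col3a1 and Col1a1 fell by 0.51 and 0.42, with sums over all 8 of 2675 to 2868 in shRNA arrays and 3312 to 3760 in control arrays. Of 8 endothelial markers, 1 could be tested and did not pass, with sums of 589 to 658 in shRNA arrays and 577 to 655 in control arrays. The log2 ratio of 3′ to 5′ control probe sets, a sign of RNA quality, was 0.55 ± 0.017 in shRNA arrays and 0.51 ± 0.018 in control arrays for actin (SD, n = 3, exact permutation p = 0.1). For GAPDH it was 0.23 ± 0.038 in shRNA arrays and 0.14 ± 0.045 in control arrays (SD, n = 3, exact permutation p = 0.1). Both ratios were higher in every shRNA array than in any control array, and this p is the smallest the test allows. The part of these markers and ratios in the proteasome values was not tested.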

How the data were processed

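RNA levels came from the authors' deposited table of normalized log2 signals. That they are log2 was inferred from their range (4.48 to 14.6). The first control array had a median of 7.23, and the medians of the other whole arrays are not given here. Per the submitters' processing notes PLIER and MAS5 were used; the sources used here give neither role nor version. Of the value columns, 0 lacked a sample. An array has no read depth, and the 3 arrays per group limit the precision.

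Gene symbols came from GEO's annotation of the platform, in which 34958 have 1 symbol, 932 have several and 9211 have none. All 47 members were found by gene identifier in the GRCm38.p6 table with 0 symbols changed. The 64 Affymetrix controls and the lowest 40% of the rest by mean over all arrays (18015) were left out, which kept 27022 probe sets. A gene was read by its brightest probe set, an _x_at one only where it has no other. Differences (shRNA minus control) were tested with limma 3.58.1 in R 4.3.3 (lmFit, eBayes with trend, Benjamini-Hochberg over all tested probe sets, threshold 0.05), after the fit was tested on simulated data. No pair of arrays held identical values in more than 0.00443% of probe sets.

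Members, lists and tests were chosen with earlier results of these data known. Every member is named. Values in each array are given for the 6 members with the largest difference past the threshold and no overlap, for Psmb5 to Psmb10 and for the activators, and, outside this rule, for genes whose probe sets disagree, for members below the tested range and for Irf1 and Tap1. Of each other list up to 3 genes past the threshold with the smallest p are named, with Nfe2l1 and Nfe2l2. Keap1, Mafg, Maff, Mafk, Nfya, Pomp, H2-D1, Erap1 and Nlrc5 were named after their values were seen. So were Tapbpl, Calr, Canx, Myog, Ncam1, Myod1, Des and Ptprc. Alternatives were other filters, no variance trend, centring, quantile normalization, probe sets averaged or restricted, array weights, a replicate block and leaving out each array.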

Additional observations from a re-analysis of the deposited data

How the results depend on the processing

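The 45 member differences were recomputed under 15 alternatives: of these 675 values, 565 kept their direction and their side of the threshold, 56 fell short of it, 26 newly passed it in the same direction and 28 changed sign. The number of higher members, 9, became 3 without a variance trend, 2 with arrays centred and 5 with probe sets averaged, and ran from 3 to 12 when single arrays were left out. With quantile normalization, 12 members were higher and 8 lower. With arrays centred, 3627 of all tested genes were higher and 3663 lower. The number of lower members, 6, became 19 with arrays centred and ran from 4 to 6 when single arrays were left out. Their median moved to -0.085 with arrays centred and ran from -0.024 to -0.00037 when single arrays were left out. The cause was not tested, except that centring lowers every difference by 0.064. Replicate numbers are shared by the groups. Deviations of same-numbered arrays from their group means had correlations of -0.13, -0.062 and 0.031. Those of differently numbered arrays ran from -0.11 to 0.14. Such correlations cannot show whether same-numbered arrays share a culture or a run. With the replicate number as a block, 7 members were higher and 4 lower, and 6808 genes were called.

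Signs changed only for small or probe-dependent differences. With arrays centred, these were Psma2 (-0.042), Psmb1 (-0.038), Psmb3 (-0.063), Psmb10 (-0.049), Psmd10 (-0.016), Psmd14 (-0.020) and Psme3 (-0.047). With quantile normalization they were Psmb10 (-0.047) and Psme3 (-0.012), and Psmb10 against Psmb7 (-0.00054). With probe sets averaged they were Psmb1 (-0.28), Psmb3 (-0.056), Psmb8 (0.087), Psmc4 (0.0064), Psmd7 (-0.0047), Psme3 (-0.058) and Psme4 (-0.15), and Psmb8 against Psmb5 (0.11). With array weights it was Psmb2 (0.0069). Leaving out single arrays spread Psmb2 from -0.053 to 0.044, Psmb3 from -0.016 to 0.027, Psmb10 from -0.027 to 0.060, Psme3 from -0.026 to 0.072 and Psmb8 against Psmb5 from -0.066 to 0.037. Of the members, 21 had a mean signal of 13 or more, and whether saturation bears on their differences was not tested.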
